A study of Rattus norvegicus with 38 samples.

Results

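The Cebpd locus was described from 15 H3K27ac peaks, 8 in the substantia nigra (SN) and 7 in the motor cortex, out of 151509 peaks listed for both regions together. The locus was chosen by the results that the study obtained at this gene when it compared rotenone with vehicle. None of its fold changes or p-values is used here, but feature and gene names were available only for peaks that the study lists as changed. Its peaks were then selected on position alone, as every peak with its middle on chromosome 11 between 84.70 and 84.95 Mb of mRatBN7.2. Rows that carry the name Cebpd in the study's peak annotation all fell on peaks inside this window and added no further peak.

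The SN, labelled as ventral midbrain, and the motor cortex, labelled as cortex, of 9 male Lewis rats aged 8 to 10 months were profiled by H3K27ac ChIP-seq. The complex I inhibitor rotenone was injected intraperitoneally at 2.8 mg/kg once daily for 21 days in 5 rats, while 4 rats received vehicle, and tissue was taken 24 h after the last injection. The labels name the vehicle as Miglyol in one place and as PBS in another. Dissected tissue mixes neurons, glia and vessel cells, and the 4 input entries come from cortex only. Reads from all rats of a region, rotenone and vehicle alike, were combined by the authors before peaks were called, so that 1 list of 70744 SN peaks and 1 list of 80765 motor cortex peaks represent the series. The deposited SN list is considerably longer than the set of SN peaks that the study counts, so that ranks and shares over the SN list refer to the longer set, while the motor cortex list is of nearly the length the study gives. These lists hold positions without heights or counts. The depth of the pools could therefore not be measured from them, but the study states that the motor cortex had more reads than the SN. Neither read depth nor the lack of an SN input entry can be told apart from region in the widths, flanks and overlaps below. None of these has a replicate error, and differences between the regions could not be tested.

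Cebpd encodes C/EBP-delta, a leucine zipper transcription factor of the CCAAT/enhancer binding protein family. The gene has a single exon and is usually expressed at a low level, and it is induced by inflammatory cytokines and by glucocorticoids, in brain mainly in astrocytes and microglia. Acetylation of lysine 27 on histone H3 marks active promoters and enhancers, so that the position and extent of peaks outline the DNA around a gene that carried the mark in at least part of the pooled tissue. In the rat gene order, Cebpd is flanked by Pkp2, which encodes the desmosome protein plakophilin 2, and by Spidr, which encodes a scaffold protein of DNA repair. Mzt2b, Prkdc and Mcm4 follow beyond Spidr.

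Both regions carried a broad peak at the Cebpd promoter and 4 further peaks within Spidr, at matching positions. The regions differed on either side of the promoter. Only the SN list held peaks directly next to the promoter peak on its Spidr side, which numbered 3, and only the motor cortex list held peaks at or beside the Pkp2 promoter, which numbered 2. Of the 8 SN peaks, 5 overlapped a motor cortex peak, as did 65.3% of the whole SN list. Among the 7 motor cortex peaks, 5 overlapped an SN peak, against 55.1% of the whole motor cortex list.

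**Figure D1:**
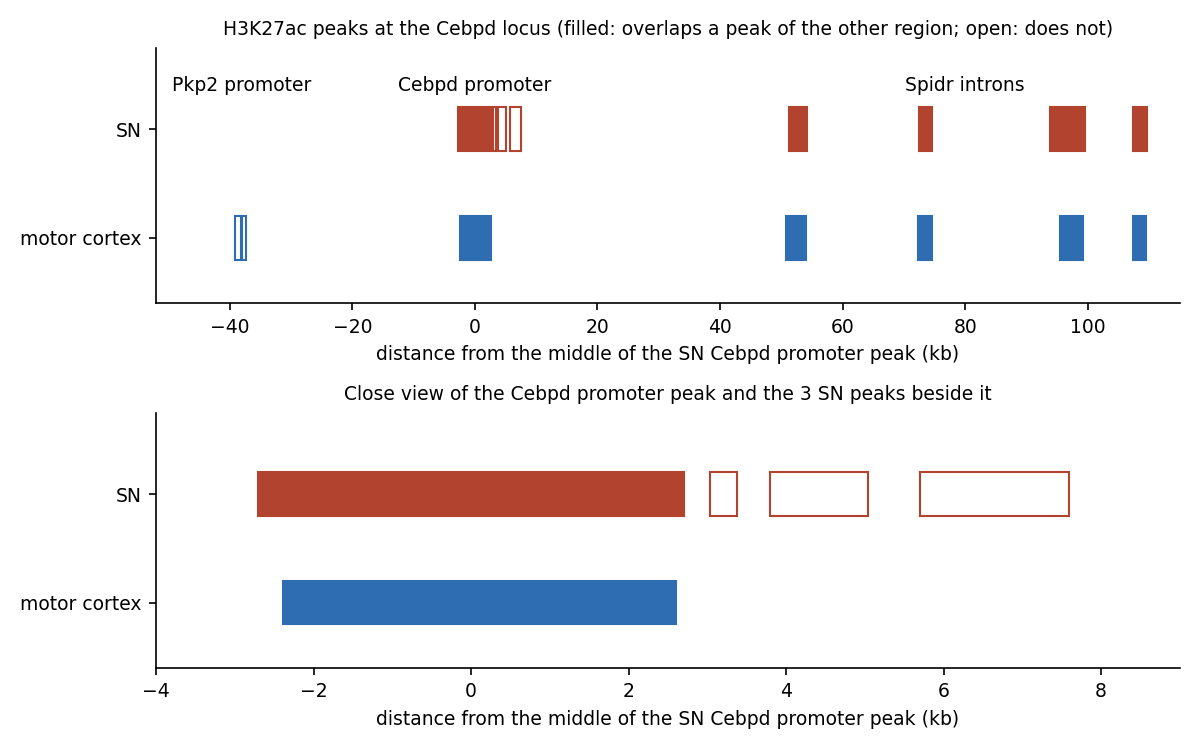
Positions of the 8 SN peaks (red, upper row) and 7 motor cortex peaks (blue, lower row), in kb from the middle of the SN promoter peak of Cebpd; filled boxes overlap a peak of the other region and open boxes do not, and the names above mark which gene feature the peaks lie at. The upper panel shows 5 filled pairs, 3 open SN boxes beside the promoter and 2 open motor cortex boxes at Pkp2, and the lower panel enlarges the promoter.

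The promoter peak of Cebpd ran from 84763576 to 84768990 in the SN, a width of 5415 bp. In the motor cortex it ran from 84763898 to 84768887, a width of 4990 bp. The motor cortex peak lay entirely inside the SN peak, which extended 322 bp further on the Pkp2 side and 103 bp further on the Spidr side. In the SN it was wider than 97.0% of the list and ranked 46 among 2037 peaks on chromosome 11. The motor cortex peak was wider than 94.8% of its list and ranked 107 among 2338 peaks on that chromosome. In both regions this placed the Cebpd promoter among the broad peaks of the list, whose medians were 994 bp in the SN and 1245 bp in the motor cortex.

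Next to the promoter peak, the SN list continued with 3 narrower peaks, none of which overlapped a motor cortex peak. The nearest began 328 bp beyond the promoter peak, ran from 84769319 to 84769655 and was 337 bp wide, which was wider than only 11.6% of the SN list. The next one ran from 84770080 to 84771328 and was 1249 bp wide. The farthest, from 84771986 to 84773875, was 1890 bp wide and is placed by the study's annotation at an exon of Spidr. Together these 3 peaks covered 3476 bp, or 15.9% of the SN peak length at the locus. With the promoter peak they formed a block of 10300 bp, of which 86.3% was under a peak.

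The motor cortex list left this stretch empty. Beyond its promoter peak no further peak followed for 48.1 kb, while in the SN the corresponding empty stretch, of 43.7 kb, began after the block. The distances from the 3 SN peaks to the nearest motor cortex peak, the promoter peak, were 431, 1192 and 3098 bp. Flanks of this kind were not rare in the SN list: among 2508 SN peaks of at least 5000 bp that overlapped a motor cortex peak, 21.9% had 3 or more SN peaks without such an overlap within 10 kb.

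The 4 distal pairs lay 52.8, 73.5, 96.7 and 108 kb from the middle of the SN promoter peak, always on the Spidr side. The study's annotation puts at least one peak of every distal pair in an intron of Spidr, with exon numbers that fall with distance from Cebpd, so that Spidr is read towards Cebpd. It assigns the annotated ones to Cebpd, because that gene has the nearest transcription start site, and this assignment is by distance and not by a measured contact.

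The pair nearest to Cebpd consisted of an SN peak from 84817578 to 84820541, 2964 bp wide, and a motor cortex peak from 84816967 to 84820343, 3377 bp wide. They shared 2766 bp, which was 93.3% of the SN peak and 81.9% of the motor cortex peak. In the next pair, the SN peak from 84838745 to 84840899 was 2155 bp wide and the motor cortex peak from 84838508 to 84840886 was 2379 bp wide. These are the 2 pairs in which the motor cortex peak was the wider one, and in both it reached further towards Cebpd, by 611 and 237 bp.

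The third distal pair showed the largest difference in width between the regions. In the SN this peak ran from 84860192 to 84865751 and was 5560 bp wide, which made it the widest peak of the locus, ahead of the promoter peak, and wider than 97.2% of the SN list. The motor cortex peak, from 84861688 to 84865471, was 3784 bp wide, wider than 90.8% of its list, and lay entirely inside the SN peak. Their ends were 280 bp apart but their starts were 1496 bp apart, so that most of the extra SN length faced Cebpd. The SN peak was 1.47 times as wide as its partner, the highest ratio of the 5 pairs, whereas the share below is counted over single pairs. A ratio of that size or larger was found in 4.07% of the 7127 pairs of the 2 lists in which each peak overlapped a single peak of the other region and both were at least 2000 bp wide.

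In the farthest pair, the SN peak from 84873551 to 84875883 was 2333 bp wide and the motor cortex peak from 84873638 to 84875801 was 2164 bp wide. The edges of this pair differed by 87 and 82 bp, and its middles by 2.5 bp, the closest match of the 5 pairs. Across the lists, the middles of the 7127 wide pairs were a median of 144.5 bp apart, with an interquartile range of 60 to 312.2 bp. At the locus, the middles were 109.5 bp apart at the promoter and 404.5, 125.0, 608.0 and 2.5 bp apart in the distal pairs in order of distance.

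**Figure D2:**
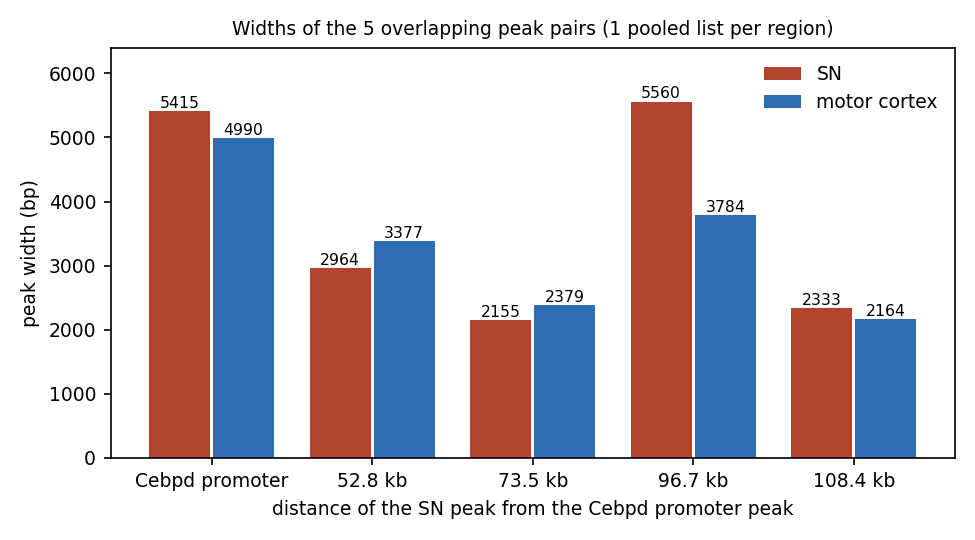
Width in bp of the SN peak (red) and the motor cortex peak (blue) in each of the 5 overlapping pairs, ordered by distance from the Cebpd promoter peak; each bar is 1 peak of a pooled list, without an error. The SN peak was wider in 3 pairs and the motor cortex peak in 2, and the pair at 96.7 kb differed most, with 5560 against 3784 bp.

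The SN peak was the wider one in 3 of the 5 pairs. Among the 31838 pairs of single overlapping peaks in both lists this held for 41.7%, and for 49.3% of those with both peaks at least 2000 bp wide. The 5 ratios of SN to motor cortex width ran from 0.878 to 1.47 with a median of 1.08. In the wide pairs of the lists the median ratio was 0.999, with an interquartile range of 0.899 to 1.10. A majority of 3 in 5 is therefore close to the level of the lists, and only the pair at 96.7 kb and the pair at 52.8 kb, with a ratio of 0.878, fell outside this range.

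At the locus, the peaks with a counterpart were all wider than those without one. The cut of 2000 bp used below falls between these sets and was set after the peaks had been seen. All 5 SN peaks of at least 2000 bp overlapped a motor cortex peak, and none of the 3 narrower ones did. In the motor cortex the split was the same, with 5 of 5 peaks of at least 2000 bp overlapping an SN peak and neither of the 2 narrower ones. The lists showed the same order: 95.9% of SN peaks of at least 2000 bp overlapped a motor cortex peak against 57.3% of narrower ones, and 74.7% of motor cortex peaks of at least 2000 bp overlapped an SN peak against 47.4%.

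**Figure D3:**
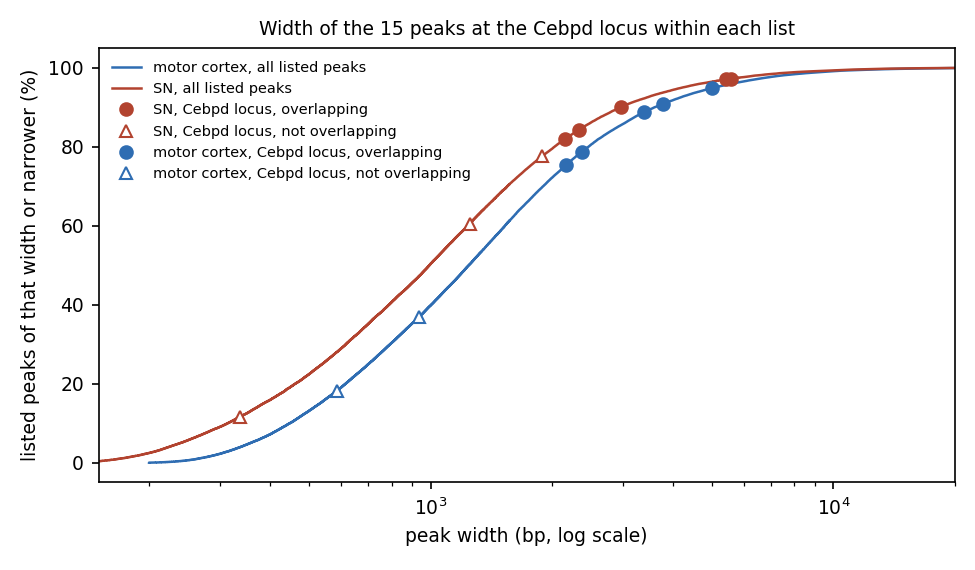
Share of listed peaks up to a given width (curves, in %) against peak width in bp on a log scale for the SN (red) and the motor cortex (blue), with the 15 peaks of the Cebpd locus marked on the curve of their own list. Circles are peaks that overlap one of the other region, all at least 2155 bp wide, and open triangles are peaks that do not, at most 1890 bp wide.

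On the Pkp2 side of Cebpd, the motor cortex list held a peak from 84727173 to 84728110, 938 bp wide, which the study's annotation places at the Pkp2 promoter. A second one, from 84728297 to 84728882, was 586 bp wide and followed after 186 bp. Both were narrower than the median of the motor cortex list, and the SN promoter peak of Cebpd, about 35 kb away, was the nearest SN peak. The 35465 and 34693 bp between them held no SN peak. Outside the window on this side, the next peak lay 128.4 kb from the middle of the SN promoter peak in the SN list and 128.3 kb from it in the motor cortex list, from 84637156 to 84638642 in the SN and from 84637404 to 84638650 in the motor cortex.

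In total, peaks covered 21903 bp of the 250 kb window in the SN, or 8.76%, and 18218 bp in the motor cortex, or 7.29%. Of this length 15846 bp was shared, which was 72.4% of the SN length and 87.0% of the motor cortex length. Distal peaks made up 59.4% of the SN length and 64.2% of the motor cortex length. The promoter peak made up 24.7% of the SN length and 27.4% of the motor cortex length, so that the larger part of the peak length lay away from the promoter in both lists.

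The number of peaks and the covered length at the locus were both above those of the median window of the same size. That median was 2 peaks and 2.34 kb covered in the SN, and 5 peaks and 5.54 kb in the motor cortex. Windows without peaks were included, whereas the locus was chosen by the study's results at Cebpd. As many as 8 SN peaks were found in 30.7% of the 10443 windows of 250 kb along the autosomes and the X chromosome, and 7 motor cortex peaks in 42.1% of 10435 windows. The same or a larger covered length was found in 15.4% of SN windows and 25.9% of motor cortex windows. The adjoining 250 kb on the Pkp2 side held 9 SN peaks that covered 9597 bp, none wider than 2534 bp, and 7 motor cortex peaks that covered 8051 bp. In the adjoining window on the Spidr side, 5 SN peaks covered 6336 bp and 7 motor cortex peaks covered 11685 bp. Just outside the window on that side, a peak pair lay with its middles 11.0 kb beyond the edge in the SN and 10.9 kb beyond it in the motor cortex, while the outermost peaks inside were those 108 kb from the promoter.

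Cebpb, the related C/EBP-beta gene and another factor induced in inflammation, was the family member with an annotated promoter peak for comparison. Its promoter peak on chromosome 3 ran from 156397385 to 156401463 in the SN, 4079 bp wide, and from 156397334 to 156401571 in the motor cortex, 4238 bp wide. At Cebpb the SN peak lay inside the motor cortex peak, the reverse of Cebpd. Within 10 kb of the Cebpb promoter peak the SN list held 2 more peaks, 190 and 650 bp wide and without a motor cortex counterpart, against 3476 bp of flanking peaks at Cebpd, and the motor cortex list held none at either gene. The 250 kb centred on the Cebpb promoter peak held 34 SN and 26 motor cortex peaks, more than at Cebpd, where 8 and 7 were counted over a window of that size around the promoter peak.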

How the data were processed

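H3K27ac ChIP-seq of 18 tissue samples from 9 rats was sequenced, on 2 lanes for 16 samples and on 1 lane for the other 2. Both samples with 1 lane were motor cortex of rotenone rats. According to the submitters' processing notes and the methods, the authors used Trim Galore 0.6.7 for trimming, Bowtie2 2.4.4 for alignment (mRatBN7.2) and Picard 2.6.0 for duplicate removal. Libraries of one region were merged, and MACS2 2.2.7.1 was run on the merged reads with the pooled inputs as control. The deposited files hold start and end positions only. Peak names rise along the chromosome with gaps in both lists. At the locus, 4 of 12 numbers in the SN and 2 of 9 in the motor cortex are missing, and the filter behind this is not given in the sources used here.

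Starts were counted from 1. Overlaps of at least 1 bp, gaps, widths and ranks were computed with Python 3.11.15, numpy 2.4.6 and pandas 2.3.3. The overlap function was checked against bedtools 2.31.1 and tested on simulated data. From the study's annotation only positions, features and gene names were read. At the locus and at Cebpb it was at hand only for peaks that the study lists as changed between rotenone and vehicle. Its fold changes, p-values and FDR values were not used, and rotenone and vehicle were not compared, since the lists pool both. Gene order came from a RefSeq table of GRCr8, from which no coordinate was taken. The planned motif search was not run, as the promoter table did not match Cebpd. Tissue identity was not checked against marker genes, because gene positions in mRatBN7.2 were not used here. Named genes were Cebpd, its neighbours within 5 places or named at the peaks, and Cebpb. The peaks, genes and lists were chosen with earlier results of these data known. The backgrounds by width, the counts per window and the flank count were set after the peaks had been seen. Alternatives were another overlap rule, a minimum width, merging and another window rule.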

Additional observations from a re-analysis of the deposited data

How the results depend on the processing

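Of 21 alternatives run on these counts, lengths and widths, 16 left the value unchanged or, for a count, within 1.5 times of it. Merging peaks up to 1 kb apart lowered the SN peaks at the locus from 8 to 5 and widened the SN promoter peak from 5415 to 10300 bp, because the 3 flanking peaks joined it, while the motor cortex promoter peak kept its 4990 bp. After merging, all 5 SN peaks overlapped a motor cortex peak, so that no separate SN peak without a counterpart was left. Leaving out peaks under 1000 bp gave a covered length of 21566 bp in the SN and 16694 bp in the motor cortex. The shared part was then 73.5% of the SN length. It also left 5 of the 7 motor cortex peaks, because both peaks at Pkp2 are narrower than that, and all 5 overlapped an SN peak. The separate SN peaks beside the promoter thus depended on whether peaks were joined, and the motor cortex peaks at Pkp2 on the minimum width. Merging alone left 6 motor cortex peaks, of which 5 overlapped an SN peak. The pair at 96.7 kb kept its widths of 5560 bp in the SN and 3784 bp in the motor cortex after merging. The 5 overlapping pairs were counted under a reciprocal overlap of 50%, a minimum width and merging alike, and allowing a distance of 1 kb between shared peaks raised the SN number to 6. No paired analysis was possible because the pooled lists carry no value for a single rat, and leaving out a rat was not possible for the same reason. The lists carry no depth, and the study describes more reads in the motor cortex than in the SN, so that an SN peak absent where the motor cortex has one, as at Pkp2, is not shown to lack the mark. The SN flanking peaks come from an SN list that is longer than the set of SN peaks that the study counts. The part of depth, or of the filter behind that list, in widths and flanks was not tested.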
